A study of Mus musculus with 6 samples.

Results

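Epithelial junction genes were followed in whole-heart RNA of Cfp1-cKO and WT mice. The 8 genes, Epcam, Cdh1, Cldn3, Cldn4, Cldn7, Cldn18, Ocln and Mal2, were taken by symbol from a table of 26881 genes, and all 8 were found. They had been picked with the values of this contrast in view, selected on their low FPKM in WT and higher FPKM in Cfp1-cKO libraries, so their genotype differences are given below as a description with no test. The study deleted Cfp1, a CpG-binding subunit of the complexes that methylate lysine 4 of histone H3, and profiled the hearts by RNA-seq at 2 weeks of age in 3 Cfp1-cKO and 3 WT libraries. The Cfp1-cKO mice carried Myh6-Cre with Cfp1 flox/flox on a C57BL/6 background, and the WT libraries came from mice that the paper calls WT controls. The exact genotype of these controls, and whether they were littermates, is not given for the RNA-seq. The Myh6 promoter drives Cre in cardiomyocytes, so other cells of the heart keep Cfp1. Whether a library held 1 heart or several is not given in the sources used here, and p-values below therefore measure the spread between these libraries. In whole tissue, fewer cells of a type and less RNA per cell cannot be told apart.

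Sheets of epithelial cells are sealed by tight junctions and held together by adherens junctions beneath them. Claudins and occludin span the membrane at tight junctions and decide what passes between cells, and E-cadherin, the product of Cdh1, binds its counterpart on the next cell and the catenins inside. Cardiomyocytes join through N-cadherin and desmosomes at intercalated discs, and endothelial cells use VE-cadherin and claudin-5.

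Library totals, worked back from the steps of single fragments in the deposited values, ranged from 16672652 to 22700811 fragments. Genes above 0 numbered 19037 to 20173 in WT and 21906 to 22269 in Cfp1-cKO libraries, and genes of the mitochondrial genome took 39.7% to 42.0% of the fragments in WT and 32.4% to 38.1% in Cfp1-cKO libraries. Cxxc1, which encodes Cfp1, had 9.66, 12.9 and 10.03 FPKM (fragments per kilobase of exon, scaled to the library's total) in the WT libraries, against 8.02, 9.94 and 8.74 FPKM in the Cfp1-cKO ones. The files give 1 value per gene, not per exon, from a tissue of mixed cells, and these ranges overlapped. The difference on the log2(FPKM + 1) scale was -0.26 (adjusted p = 0.249, limma), or -0.75 (adjusted p = 0.0485, limma) after median-of-ratios scaling. With limma on 11017 genes (mean FPKM of at least 1 over the 6 libraries), 2325 genes were called higher (21.1%) and 185 lower (1.68%) in Cfp1-cKO at an adjusted p below 0.05 and an absolute log2 difference above 0.5. After median-of-ratios scaling the same test called 355 higher and 445 lower, and this scaling moved the median difference of all tested genes from 0.35 to -0.07.

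The sequences just before the start sites of 4 members are shown because Cfp1 is known to bind unmethylated CpG. The 4 windows also differ in which of the motifs named below they hold, if any. Of the 8 members, 6 had entries among the RefSeq promoters of GRCm38.p6. Each line gives 250 bases that end at the base before the start site, 5′ to 3′ on the gene's strand, and capitals mark matches on either strand to ACCGGT (the core bound by grainyhead-like factors), CAGGTG (the E-box of Snail and Zeb repressors), CAAGTG (the core bound by Nkx2-1) or GGGCGG (the GC box of Sp factors).
Epcam: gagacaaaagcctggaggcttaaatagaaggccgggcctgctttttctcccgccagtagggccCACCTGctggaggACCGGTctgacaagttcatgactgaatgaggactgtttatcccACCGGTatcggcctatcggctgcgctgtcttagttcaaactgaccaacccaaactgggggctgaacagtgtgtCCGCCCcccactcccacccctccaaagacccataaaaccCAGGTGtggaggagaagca
Cldn3: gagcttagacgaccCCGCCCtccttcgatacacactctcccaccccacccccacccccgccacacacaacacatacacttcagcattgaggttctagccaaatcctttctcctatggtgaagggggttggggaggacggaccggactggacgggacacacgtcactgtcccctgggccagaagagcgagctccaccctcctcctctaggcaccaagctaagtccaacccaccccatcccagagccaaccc
Cldn4: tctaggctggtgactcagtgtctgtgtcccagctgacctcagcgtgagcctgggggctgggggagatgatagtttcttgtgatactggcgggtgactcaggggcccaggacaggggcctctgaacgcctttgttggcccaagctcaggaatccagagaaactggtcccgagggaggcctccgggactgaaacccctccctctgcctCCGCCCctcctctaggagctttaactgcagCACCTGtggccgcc
Cldn18: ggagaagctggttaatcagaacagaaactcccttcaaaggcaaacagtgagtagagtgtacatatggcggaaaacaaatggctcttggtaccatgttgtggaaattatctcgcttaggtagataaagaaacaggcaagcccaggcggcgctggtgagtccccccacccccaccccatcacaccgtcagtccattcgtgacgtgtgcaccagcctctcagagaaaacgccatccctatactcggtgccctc
The Epcam window lies at chr17:87635729-87635978 on the plus strand and holds 8 CpG. It has ACCGGT at 174 and 131 bases and CAGGTG at 187 and 19 bases before the start site, with a GC box at 58 bases. The Cldn3 window, chr5:134985964-134986213 on the plus strand, holds 9 CpG and a GC box at 236 bases. The Cldn4 window, chr5:134946935-134947184 on the minus strand, holds 7 CpG, CAGGTG at 14 bases and a GC box at 44 bases. The window of the first Cldn18 start, chr9:99717268-99717517 on the minus strand, holds 9 CpG and none of the 4 motifs, and that of its second start has CAAGTG at 98 bases. No matches overlapped in the printed windows. Over 32851 promoter windows of the same length, ACCGGT was found in 1.86%, CAGGTG in 17.2%, CAAGTG in 11.6% and GGGCGG in 32.7%, and the CpG number had a median of 6 with quartiles of 2 and 16. The second Cldn7 start, not printed, has CAAGTG at 223 bases, CAGGTG at 97 and 57 bases and a GC box at 6 bases. The 4 printed windows, with 7 to 9 CpG, thus lie between the median and the upper quartile, while the windows of the 2 Ocln starts hold 14 and 22 CpG. A match of letters is a description of the window and was not tested as a binding site.

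RNA of both adhesion genes of the list was near 0 in WT hearts and measurable in every Cfp1-cKO library. Epcam (ENSMUSG00000045394, chr17:87635979-87651106), a surface protein of simple epithelia that binds its like on the next cell, had 0, 0.0520 and 0 FPKM in the WT libraries, against 1.59, 3.29 and 3.95 FPKM in the Cfp1-cKO ones. The groups did not overlap, and the lowest Cfp1-cKO library was replicate 1. These values rest on 2 fragments in WT and 320 in Cfp1-cKO libraries. Relative to library totals that is a ratio of 176 (95% exact Clopper-Pearson interval 48.3 to 1459, counting error only, as for all intervals here). Mean levels were 0.0173 ± 0.0300 FPKM for WT, against 2.94 ± 1.22 FPKM for Cfp1-cKO (SD, n = 3), a difference of 1.90 on the log2(FPKM + 1) scale, which understates the change of low genes.

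Cdh1 (ENSMUSG00000000303, chr8:106603351-106670246), which encodes E-cadherin, had 0, 0.0116 and 0.0243 FPKM in the WT libraries, against 5.60, 5.40 and 8.96 FPKM in the Cfp1-cKO ones. Replicate 3 was the highest and the other two lay close together, far above every WT library. Fragments numbered 3 in WT and 1649 in Cfp1-cKO libraries, a ratio of 604 (206 to 2933). Mean levels were 0.0120 ± 0.0121 FPKM for WT, against 6.65 ± 2.00 FPKM for Cfp1-cKO (SD, n = 3), a difference of 2.89 on the log2(FPKM + 1) scale. Cdh1 stood 3.53, 1.64 and 2.27 times as high as Epcam in Cfp1-cKO replicates 1, 2 and 3, so the balance of the adhesion pair was not the same in each library.

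The 4 claudins included both the highest and the lowest of the 8 genes. Cldn18 (ENSMUSG00000032473, chr9:99689461-99717267), a claudin of alveolar and gastric epithelium, had 0 FPKM in each of the 3 WT libraries, against 7.07, 9.13 and 14.7 FPKM in Cfp1-cKO libraries. It was the highest of the 8 genes in Cfp1-cKO by its mean of 10.3 ± 3.93 FPKM (SD, n = 3), with 614, 678 and 1177 fragments. With 0 fragments in WT no ratio could be formed. Set against a floor of 3 fragments over the whole WT group, the ratio would be 905, which is given without an interval and is not a lower limit. The difference of Cldn18 on the log2(FPKM + 1) scale was 3.44. Over the table, 622 genes (2.31%) were at 0 in all WT and above 0 in all Cfp1-cKO libraries, and of the 8 members only Cldn18 was among them.

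Cldn3 (ENSMUSG00000070473, chr5:134986214-134987472), which tightens the paracellular barrier of many simple epithelia, had 0, 0.126 and 0 FPKM in the WT libraries, against 4.57, 8.43 and 8.25 FPKM in the Cfp1-cKO ones. Its 3 WT fragments all came from replicate 2, and 476 fragments were found in Cfp1-cKO libraries, a ratio of 174 (59.3 to 849). The mean in Cfp1-cKO was 7.08 ± 2.18 FPKM (SD, n = 3) and the difference was 2.92 on the log2(FPKM + 1) scale. Cldn4 (ENSMUSG00000047501, chr5:134945119-134946934), the protein-coding gene next to Cldn3 with 39280 bases between them, had 0.0243, 0 and 0 FPKM in the WT libraries, against 0.170, 0.396 and 0.122 FPKM in the Cfp1-cKO ones. With 1 fragment in WT and 6, 12 and 4 in Cfp1-cKO libraries, the ratio of 24.2 had an interval from 3.91 to 998, and Cldn4 was the lowest and least certain of the 8. Cldn3 stood 26.9, 21.3 and 67.4 times as high as its neighbour in Cfp1-cKO replicates 1, 2 and 3 on the FPKM scale, which is per length of exon.

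Cldn7 (ENSMUSG00000018569, chr11:69964779-69967885), a claudin known to bind the Epcam protein, had 0.0452, 0 and 0.0570 FPKM in the WT libraries, against 1.37, 1.57 and 1.82 FPKM in the Cfp1-cKO ones. The 3 Cfp1-cKO values were close, with a mean of 1.59 ± 0.227 FPKM (SD, n = 3), and none came near a WT value. The 4 WT and 167 Cfp1-cKO fragments gave a ratio of 45.9 (17.6 to 170), and the difference was 1.32 on the log2(FPKM + 1) scale. Relative to Epcam in the same library Cldn7 was at 0.864 in replicate 1 and at 0.477 and 0.462 in replicates 2 and 3.

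Ocln (ENSMUSG00000021638, chr13:100496507-100552718), which encodes occludin, was the only member with more than 10 fragments in any WT library. It had 0.219, 0.364 and 0.381 FPKM in the WT libraries, against 1.20, 1.88 and 1.08 FPKM in the Cfp1-cKO ones. The groups were apart, but by far less than for the other members: 79 fragments stood against 313, a ratio of 4.36 (3.39 to 5.65). Mean levels were 0.322 ± 0.0892 FPKM for WT, against 1.39 ± 0.429 FPKM for Cfp1-cKO (SD, n = 3), a difference of 0.84 on the log2(FPKM + 1) scale.

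Mal2 (ENSMUSG00000024479, chr15:54571366-54602846) encodes a membrane protein that carries cargo across polarised epithelial cells and shares the MARVEL fold with occludin. It had 0, 0.0765 and 0.0400 FPKM in the WT libraries, against 7.44, 6.55 and 7.22 FPKM in the Cfp1-cKO ones. These 3 values were the most even of any member, with a mean of 7.07 ± 0.463 FPKM (SD, n = 3). WT libraries held 6 fragments and Cfp1-cKO libraries 1066, a ratio of 195 (89.4 to 533), and the difference was 2.96 on the log2(FPKM + 1) scale.

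**Figure D1:**
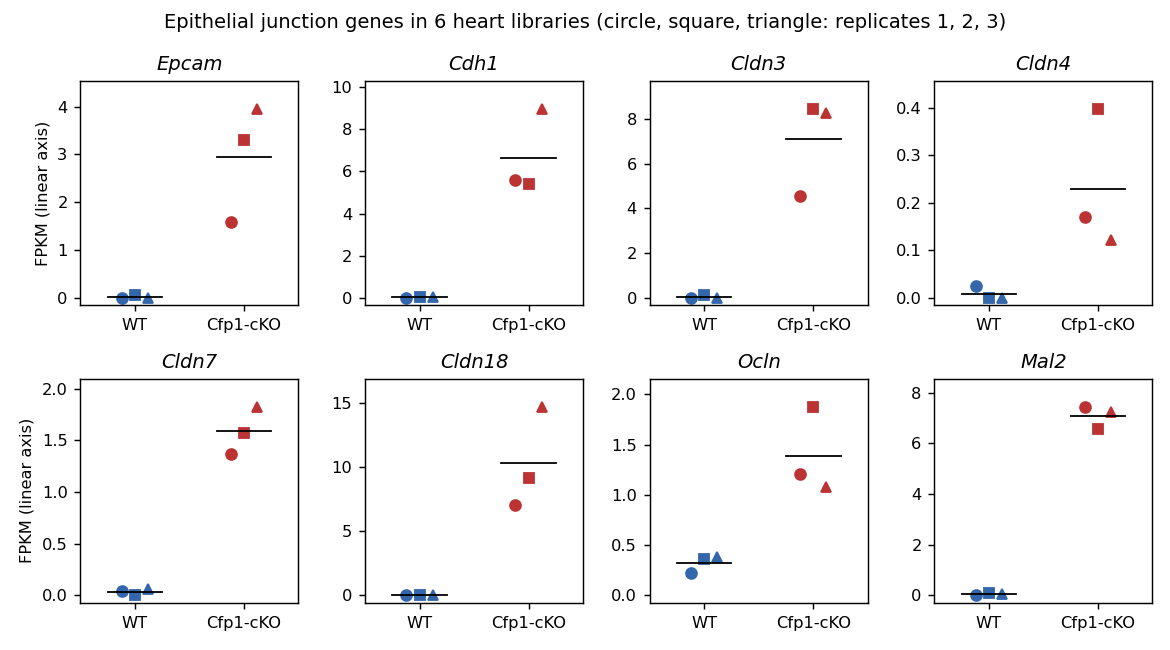
Each panel shows 1 gene, with FPKM in every library on a linear axis (WT in blue, Cfp1-cKO in red, a circle, square or triangle for replicates 1, 2 and 3) and a bar at the group mean. All 8 genes lie higher in each Cfp1-cKO library than in any WT library, from 0.122 to 0.396 FPKM for Cldn4 up to 7.07 to 14.7 FPKM for Cldn18.

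All 8 members had a lowest Cfp1-cKO value above the highest WT value, a property that the choice of members made likely and that 33.1% of the 26881 genes shared. The median difference over all 8 was 2.40 on the log2(FPKM + 1) scale, beside 0.35 over all tested genes. Member by member the difference ran from 0.28 for Cldn4 to 3.44 for Cldn18, or from 0.23 to 3.19 after median-of-ratios scaling. Only 5 of the 8 had a mean of at least 1 FPKM, and those 5 passed this filter through their Cfp1-cKO values alone, since no WT value of any member was above 0.381 FPKM. Cldn4, Cldn7 and Ocln did not pass, and they belong to 15864 genes of the table below the filter, of which 23.9% had Cfp1-cKO above WT without overlap. A WT mean below 0.1 FPKM with a Cfp1-cKO mean of at least 1 FPKM was seen in 163 genes (0.606%), among them Cldn18, Cldn3, Mal2, Cdh1, Epcam and Cldn7.

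In Cfp1-cKO hearts the order of the mean levels was Cldn18, Cldn3, Mal2, Cdh1, Epcam, Cldn7, Ocln and Cldn4. The ranges of Cldn18, Cldn3, Mal2 and Cdh1 overlapped one another, so the order among them is not larger than the spread between libraries. Those of Epcam, Cldn7 and Ocln also overlapped one another and lay below the first 4, and Cldn4 lay below all. In WT hearts Ocln was the highest of the 8 in every library, and the other 7 could not be ordered, having 3, 10 and 6 fragments in all in WT replicates 1, 2 and 3.

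**Figure D2:**
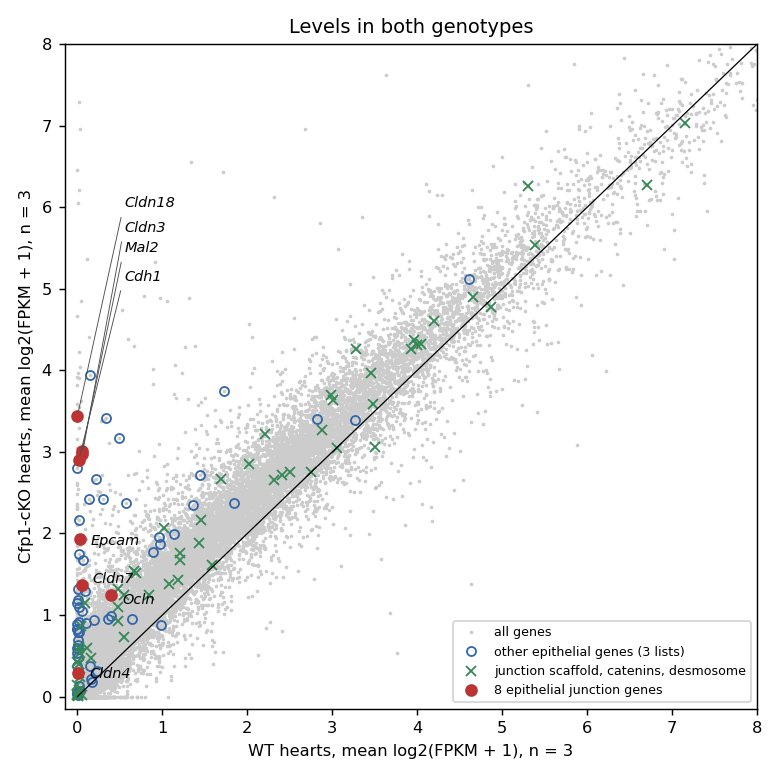
Each gene is placed by its mean log2(FPKM + 1) in 3 WT libraries (x) and 3 Cfp1-cKO libraries (y), with the 8 members in red and named, genes of 3 epithelial lists as blue circles, genes of 3 junction scaffold lists as green crosses, and the line of equal levels. The axes end at 8, beyond which 135 genes are not drawn, and 7 members stand at the left edge while Ocln lies a little to the right.

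The members did not share 1 order of levels among the 3 Cfp1-cKO libraries. The highest over the lowest FPKM ranged from 1.14 for Mal2 and 1.33 for Cldn7 to 2.49 for Epcam and 3.24 for Cldn4, with a median of 1.79. Epcam, Cdh1, Cldn7 and Cldn18 were highest in replicate 3, Cldn3, Cldn4 and Ocln in replicate 2, and Mal2 in replicate 1. Replicate 1 was lowest for Epcam, Cldn3, Cldn7 and Cldn18, and replicate 3 for Cldn4 and Ocln. Summed over the 8 genes the levels were 29.0, 36.6 and 46.1 FPKM in Cfp1-cKO replicates 1, 2 and 3 and 0.289, 0.631 and 0.503 FPKM in the WT replicates.

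Markers of lung epithelium and of mesothelium, the outer lining of heart and lung, were also higher in the Cfp1-cKO libraries. Of 12 marker genes of alveolar type 2 cells, which make surfactant, all 12 were tested and all 12 were called higher, beside 21.1% of the whole table. Only 4 of the 12 had a WT mean of at least 1 FPKM (all 4 called, beside 18.6% of such genes), and the other 8, Sftpc among them, passed the filter through their Cfp1-cKO values alone. They summed to 2065, 3494 and 5184 FPKM in Cfp1-cKO replicates 1, 2 and 3 and to 43.6 to 59.8 FPKM in the WT group, where Lyz2, which macrophages also express, made up most of the sum with 36.0 to 56.0 FPKM. Sftpc, the defining surfactant gene of these cells, had 0, 0.330 and 0 FPKM in the WT libraries, against 1202, 2163 and 3232 FPKM in the Cfp1-cKO ones. The other lists were less uniform, and calls among their genes with a WT mean of at least 1 FPKM numbered 2 of 5 for alveolar type 1, 1 of 1 for club, 0 of 1 for ciliated and 2 of 4 for mesothelial markers. Of 9 markers of alveolar type 1 cells other than Cldn18, 7 were tested and 4 called higher, with Hopx, the highest of them, at 94.4 ± 16.5 FPKM in the WT group against 84.9 ± 24.4 FPKM in the Cfp1-cKO group (SD, n = 3). Club cell markers of the airway were called higher for 5 of 6 tested and summed to 2986, 445 and 786 FPKM in Cfp1-cKO replicates 1, 2 and 3, beside 0.475 to 4.50 FPKM in WT. Ciliated cell markers were called higher for 1 of 2 tested, with sums of 14.1 to 25.6 FPKM in Cfp1-cKO and 4.85 to 9.72 FPKM in WT libraries. Mesothelial markers were called higher for 4 of 6 tested, with sums of 26.9 to 52.0 FPKM in Cfp1-cKO and 9.62 to 10.2 FPKM in WT libraries. After median-of-ratios scaling the calls were 11, 3, 4, 1 and 2 for these 5 lists, and without WT replicate 1 there were 2 calls in the mesothelial list. The part of such cells in the levels of the 8 genes was not tested.

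Markers of other epithelia and of the heart itself were read in the same way. Of the markers of thymic epithelium and of thymocytes 1 each was tested and neither was called, and none of thyroid and parathyroid reached the filter. Aire, a defining gene of thymic epithelium, was at 0.0314 FPKM or less in every library. Tshr and Gcm2, of thyroid and parathyroid, were at 0 in all WT libraries and at 0.0417 FPKM or less in Cfp1-cKO libraries. All thyroid and parathyroid markers summed to 0.327 to 1.041 FPKM in WT and 1.305 to 1.876 FPKM in Cfp1-cKO libraries. Thymocyte markers summed to 1.340 to 1.607 FPKM in WT and 1.974 to 4.180 FPKM in Cfp1-cKO libraries. Neither pair of ranges overlapped, while the sums of thymic epithelium markers did. Differences of these sums were not tested. Of 10 cardiomyocyte markers 4 were called lower, beside 1.68% of the whole table, and none higher, and they were abundant in all 6 libraries, with sums of 7956 to 10416 FPKM for WT and 5694 to 7565 FPKM for Cfp1-cKO. Without Cfp1-cKO replicate 2 there were 2 such calls. Endothelial markers were called higher for 3 of 10, near the 21.1% of the whole table, and those of lung and other capillaries for 3 of 6 tested, and none of either list was called after median-of-ratios scaling or without WT replicate 1.

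Beside these markers, the spread of the members among the Cfp1-cKO libraries can be set in proportion. The sum of type 2 markers ranked the Cfp1-cKO libraries 3, 2, 1, the order of Epcam, Cldn7 and Cldn18. Per 1000 FPKM of Sftpc, Cldn18 was at 5.88, 4.22 and 4.54 FPKM in replicates 1, 2 and 3, a highest over lowest ratio of 1.39 in place of 2.07. Epcam per 1000 FPKM of Sftpc was at 1.32, 1.52 and 1.22 FPKM, a ratio of 1.25 in place of 2.49. Mal2 went the other way, at 6.18, 3.03 and 2.23 FPKM per 1000 FPKM of Sftpc, a ratio of 2.77 in place of 1.14. Ocln was most even per mesothelial markers, with a ratio of 1.11 in place of 1.74. Divided by the summed markers of a cell type, the 8 genes had a median ratio of 1.82 for type 2, 1.93 for type 1, 2.19 for mesothelial, 3.09 for ciliated and 9.56 for club cell markers. Undivided, the median was 1.79. Division made 3 of the 8 genes more even for type 2, 3 for type 1, 2 for mesothelial and 0 for ciliated or club cell markers. No single list made the libraries even, and the club list made them the most uneven of the 5. The type 1 list summed to 129 to 193 FPKM in WT and 209 to 312 FPKM in Cfp1-cKO libraries. The ciliated and mesothelial sums were also above 0 in WT, so these lists counted RNA present in WT hearts as well. With 3 libraries these proportions are a description.

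**Figure D3:**
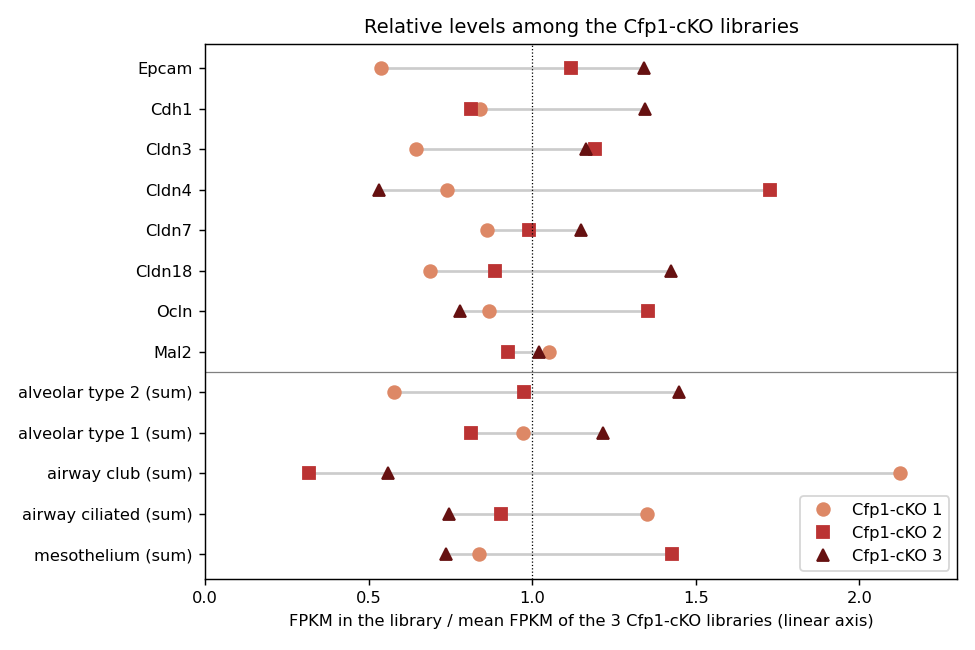
The level of each member and the summed level of 5 marker lists in each Cfp1-cKO library is drawn relative to its mean over the 3 Cfp1-cKO libraries (linear axis, 1 marker per library). Mal2 and Cldn7 stay close to the dotted line at 1, Epcam and Cldn18 run from replicate 1 to replicate 3 as the type 2 sum does, and the club cell sum is highest in replicate 1.

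Other junction genes and epithelial genes outside the junction, taken from 10 lists, were read from the limma fit over all genes. In each called gene named here, all 3 Cfp1-cKO libraries lay above all 3 WT libraries. Of 166 listed genes found, 75 were tested, and 31 (41.3%) were called higher and 0 lower (1 lower at an unadjusted p below 0.05, and 0 of 70 by voom), beside 21.1% higher in the whole table, with a median difference of 0.51 beside 0.35. Many of these calls were not of junction genes: 12 of 15 tested membrane and protease genes, 5 of 5 simple keratins and 1 of 2 epithelial factors. The junction lists had 4 of 18 scaffold, 7 of 14 adherens, 2 of 6 cadherin, 0 of 5 desmosome and 0 of 3 claudin genes called higher. Among listed genes with a WT mean of at least 1 FPKM, 14 of 56 were called higher, or 25%, beside 18.6% of all such genes. Without WT replicate 1 or Cfp1-cKO replicate 2 the count fell from 31 to 18, and without Cfp1-cKO replicate 3 to 20. After median-of-ratios scaling 14 were called higher and 3 lower. Of the 91 listed genes below the filter, 52 had Cfp1-cKO above WT without overlap, beside 23.9% of all genes below the filter, and 1, Cldn11, had it below.

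Scaffold and catenin genes, whose products sit on the inner face of the junctions, were mostly present in WT hearts. Of the tight junction scaffold genes 18 of 26 passed the filter, and 4 were called higher (22.2%), with a median difference of 0.40, near the 21.1% and 0.35 of the whole table. Of the 15 with a WT mean of at least 1 FPKM 2 were called, beside 18.6% of all such genes. Patj, a scaffold of the Crumbs polarity complex at tight junctions, rose from 0.596 ± 0.199 to 1.92 ± 0.406 FPKM (SD, n = 3), a log2 difference of 0.87 (adjusted p = 0.0171, limma). It passed the filter through its Cfp1-cKO values and was not called without WT replicate 1 (0.86) or Cfp1-cKO replicate 3 (0.76). Of the catenins, nectins and linkers of adherens junctions 14 of 18 passed and 7 were called higher, with a median difference of 0.59. Ctnnb1, the beta-catenin that binds E-cadherin, rose from 38.6 ± 5.61 to 75.5 ± 7.98 FPKM (SD, n = 3), by 0.96 (adjusted p = 0.00961, limma). After median-of-ratios scaling none of the 4 and none of the 7 was called, and the median of the scaffold list turned from 0.40 to -0.09. Ctnnb1 was called with each library left out in turn, but the 4 scaffold calls fell to 1 without WT replicate 1 or Cfp1-cKO replicate 3 and to 2 without WT replicate 2 or Cfp1-cKO replicate 2. The 7 calls of the adherens list fell to 1 without Cfp1-cKO replicate 2, 2 without WT replicate 1 and 3 without Cfp1-cKO replicate 3.

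The cadherins and claudins beside the members were mostly below the filter, 14 of 20 and 12 of 15. Of these, 5 cadherins and 5 claudins had Cfp1-cKO above WT without overlap and 1 claudin had it below, beside 23.9% above for all genes below the filter. Of 6 tested cadherins, Cdh16, a cadherin of kidney and thyroid epithelia, rose from 0.228 ± 0.186 to 3.98 ± 0.872 FPKM (SD, n = 3), by 2.02 (adjusted p = 0.000856, limma), but it passed the filter through its Cfp1-cKO values alone. Of the 5 cadherins with a WT mean of at least 1 FPKM 1 was called. This was Cdh5, the cadherin of endothelium, called at a log2 difference of 0.68 (adjusted p = 0.0400, limma). It lost this call without any library except WT replicate 3 (0.49 to 0.78), with the replicate number as a block (adjusted p = 0.0591, limma) and after median-of-ratios scaling, where the difference was 0.15 (adjusted p = 0.646, limma). Of the 15 other claudins, 3 were tested and none was called by limma, by voom or at an unadjusted p below 0.05. Cldn5, the endothelial claudin, had 28.1, 75.3 and 10.6 FPKM in the WT libraries, against 30.2, 26.8 and 15.7 FPKM in the Cfp1-cKO ones, which overlapped (log2 difference -0.28, adjusted p = 0.732, limma). Cldn12 and Cldn15 had differences of -0.34 and -0.12 (adjusted p = 0.202 and 0.816, limma). Of 5 tested desmosome genes none was called by limma or by voom, and 1 was lower at an unadjusted p below 0.05, with Dsp, the plaque protein that anchors intermediate filaments, at 40.8 ± 4.65 FPKM in the WT group against 47.4 ± 18.1 FPKM in the Cfp1-cKO group (SD, n = 3, adjusted p = 0.649, limma), while Dsg2 and Perp were called lower after median-of-ratios scaling. Of the 11 desmosome genes below the filter 8 had Cfp1-cKO above WT without overlap, among them Ppl, the highest of the 8, with means of 0.399 FPKM for WT and 1.501 FPKM for Cfp1-cKO.

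Genes of simple epithelia outside the junction were also higher in Cfp1-cKO hearts. All 5 tested simple keratins were called higher, beside 21.1% of the whole table, also after median-of-ratios scaling and with each library left out. None of the 5 had a WT mean of at least 1 FPKM, so all passed the filter through their Cfp1-cKO values and the count of calls is a description. Krt8 rose from 0.273 ± 0.194 to 9.78 ± 1.96 FPKM (SD, n = 3), by 3.08 (adjusted p = 8.68e-05, limma), and Krt18, its filament partner, from 0.407 ± 0.135 to 8.34 ± 2.89 FPKM, by 2.68 (adjusted p = 0.000529, limma). Of 15 tested membrane and protease genes 12 were called higher, beside 21.1% of the whole table. The calls were 7 after median-of-ratios scaling and 8 without WT replicate 1 or Cfp1-cKO replicate 2. Of the 7 with a WT mean of at least 1 FPKM 4 were called, beside 18.6% of all such genes. The other 8 of the 15, among them the 3 named next, passed the filter through their Cfp1-cKO values. On the log2(FPKM + 1) scale Muc1, an apical mucin, rose by 3.80 (adjusted p = 0.000248, limma), Scnn1a, a subunit of the epithelial sodium channel, by 2.29 (adjusted p = 0.000527, limma), and Prss8, a protease that activates this channel, by 2.15 (adjusted p = 0.00124, limma). None of the 6 stratified keratins in the table reached the filter, and Krt14 was at 0.0501 to 0.158 FPKM in WT and 0.189 to 1.06 FPKM in Cfp1-cKO libraries.

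Regulators of the members were mostly below the filter. Of 19 epithelial transcription and splicing factors found, 2 were tested, and Nkx2-1, a factor of lung and thyroid epithelium, was at 0 in all WT libraries and at 4.46, 5.63 and 8.44 FPKM in Cfp1-cKO libraries (adjusted p = 0.000219, limma), which alone brought it past the filter. Foxa1, Foxa2, Esrp1, Ehf and Ovol2 were likewise at 0 in all WT libraries, and the first 4 were at 0.350 to 2.01 FPKM in each Cfp1-cKO library, while Ovol2 was at 0, 0 and 0.0788 FPKM. Grhl2, a grainyhead-like factor whose core motif stands in the Epcam window, had 0.320, 0.569 and 0.827 FPKM in the WT libraries, against 0.531, 0.948 and 1.44 FPKM in the Cfp1-cKO ones, which overlapped. Of 7 tested repressors of Cdh1 none was called by limma or by voom, and 3 were higher at an unadjusted p below 0.05. Zeb1, which binds the E-box, was at 6.50 ± 0.866 FPKM in the WT group against 8.03 ± 1.05 FPKM in the Cfp1-cKO group (SD, n = 3), a log2 difference of 0.27 (adjusted p = 0.224, limma).

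**Figure D4:**
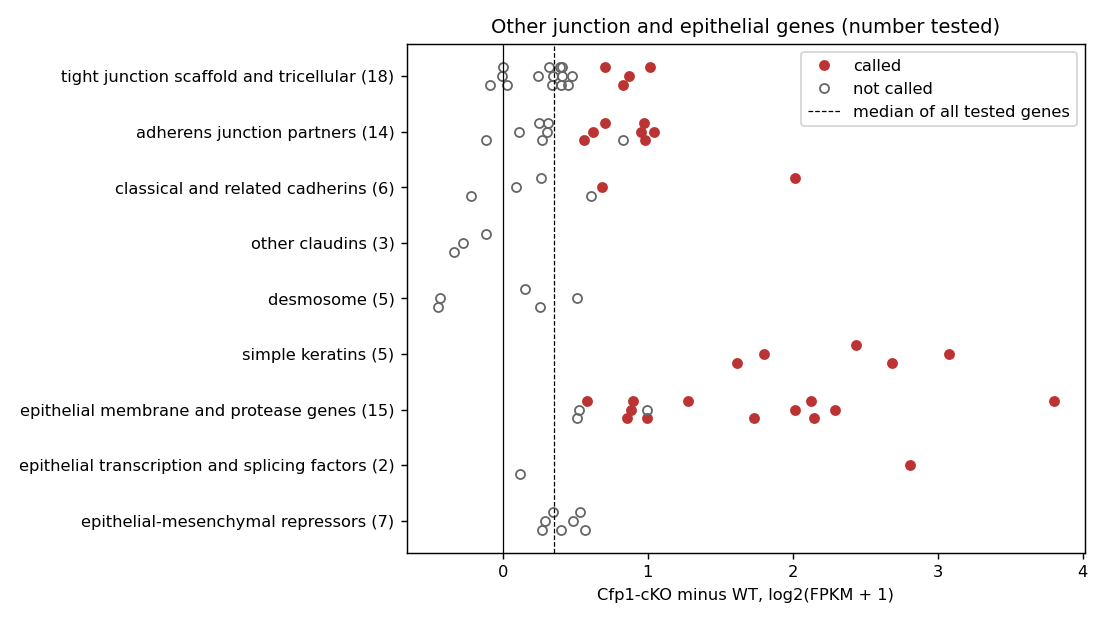
Each point is 1 tested gene of 9 lists placed by its difference, Cfp1-cKO minus WT, in log2(FPKM + 1), filled red where called and open where not, with the number tested in parentheses and a dashed line at the median of all tested genes, 0.35. The 5 simple keratins lie far right of that line, while the 3 claudins that are not members lie left of 0 and none of the 5 desmosome genes is filled.

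The tested genes most like the mean profile of the 8 members were sought by the root mean square difference of centred log2(FPKM + 1) over the 6 libraries. Tspan8, a tetraspanin of epithelia, and Sfta2, a surfactant-associated gene, were both at 0.097, followed by Alcam at 0.10, H2-DMb1 at 0.11, Cd44 and Wwc1 at 0.14, H2-DMa at 0.16 and Prss8 at 0.17. Of the members themselves Epcam was nearest to their mean profile at 0.18 and Cldn4 farthest at 0.91.

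Genes that flank the members gave no common picture. Elp5, which lies 337 bases from Cldn7, was called higher (log2 difference 0.64, adjusted p = 0.0278, limma), but not without WT replicate 1 or 2 or Cfp1-cKO replicate 1 or 2 (0.55 to 0.74) and not after median-of-ratios scaling (0.14). Abhd11 beside Cldn3, Slc2a4 beside Cldn7, Gtf2h2 beside Ocln and Nov beside Mal2 were not called, with differences of -0.61 to 0.41. Calm2, on the other side of Epcam, averaged 111 FPKM for WT against 203 FPKM for Cfp1-cKO and was not called (log2 difference 0.84, adjusted p = 0.0510, limma). Marveld2, which encodes a tricellular junction protein and lies 43239 bases from Ocln, was below the filter with 0.234, 0.141 and 0.903 FPKM in the WT libraries, against 1.08, 0.603 and 1.95 FPKM in the Cfp1-cKO ones, which overlapped.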

How the data were processed

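RNA-seq of 3 WT and 3 Cfp1-cKO heart libraries was deposited by the authors as FPKM per gene. TopHat, Bowtie2 and DESeq are named in the paper, which gives the address of a chicken genome, whereas the submitters' processing notes list, without order, CASAVA, TopHat2, Bowtie2 2.2.3, HISAT2 2.1.0, DESeq2, HTSeq 0.6.0 and the build GRCm38. The submitters' extraction text speaks of retina and could not be related to these hearts. A plain and an annotated table held identical FPKM for all 26881 genes. Values divided into whole fragments (tolerance 0.02) for 96.1% of genes, with GENCODE M21 lengths for 23968 and another length for 1855, which gave library totals and counting intervals (exact, 95%).

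Genotypes were compared on log2(FPKM + 1) over the whole table with limma 3.58.1 (R 4.3.3, prior variance with a trend) for 11017 genes whose mean reached 1 FPKM. Calls needed an absolute log2 difference above 0.5 and an adjusted p (Benjamini-Hochberg) below 0.05. It was tested on simulated data of the same comparison. FPKM are not counts, so no count model was the main test. Replicates differed beyond sampling noise in every pair (chi-square per degree of freedom 30.4 to 77.8). Gene lists, 21 beside the members (10 of pathways, 11 of cell type markers), and the members were chosen with earlier results of these data known, and motifs with the promoters in view. Named were all members, up to 4 called genes of each list by size of difference (or the highest genes, to reach 2), other claudins above 1 FPKM, up to 4 highest markers of each list and markers at 0, the 8 most alike genes and the flanking coding genes. Not all of these are printed, and some genes the rule names are not reported here. Cldn11, Dsg2, Krt14, Foxa1, Foxa2, Esrp1, Ehf, Ovol2, Grhl2, Ppl, Ctnnd1, Ajuba and Mall stand in the text to explain a count or a motif, some of them chosen after their values were seen. Alternatives covered pseudocount, filter, scaling, variance trend, replicate block, fold threshold, voom on the fragments and each library left out. Tables and plots were made in Python 3.11.15 (pandas 2.3.3, numpy 2.4.6, matplotlib 3.10.9, scipy 1.17.1). Amino acid sequences were not used here.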

Additional observations from a re-analysis of the deposited data

How the results depend on the processing

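The 2510 calls over the whole table became 1609 with no filter, 800 after median-of-ratios scaling, 1559 without mitochondrial and haemoglobin genes and 743 at an absolute log2 difference above 1. Leaving out 1 library gave 588 to 2789 calls, with the fewest without Cfp1-cKO replicate 2 (588), WT replicate 1 (680) and Cfp1-cKO replicate 3 (1086). The 31 calls among other junction and epithelial genes became 47 with no filter and 57 with a filter at a mean of 0.1 FPKM, since more genes were tested, 17 after median-of-ratios scaling and 16 at an absolute log2 difference above 1, and ranged from 18 to 34 with 1 library left out. The median difference of the 8 members, 2.40, was 5.18 with a pseudocount of 0.1 and 7.25 on the voom scale, both of which weigh low values more, and 2.198 to 2.55 with 1 library left out. It was 2.17 after median-of-ratios scaling and 2.37 without mitochondrial and haemoglobin genes. Their median spread among Cfp1-cKO libraries, 1.79, was 1.40 to 1.49 with 1 library left out, as fewer libraries allow. After median-of-ratios scaling the share of higher among the calls over the whole table went from 92.6% to 44.4%, and 3 junction and epithelial genes were called lower in place of 0. No named gene called higher was called lower under any alternative. Causes of the other changes were not tested.

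Whether the replicate numbers pair the samples is not given in the sources and was not settled here. Deviations of same-numbered libraries correlated at 0.11, 0.036 and 0.10, beside -0.12 to 0.029 for different numbers. Each library thus correlated best with its own number, but weakly. With the replicate block 1749 genes of the whole table and 27 junction and epithelial genes were called, and the calls of Vcl, Cdh5, Ctnnd1, Ajuba and Mall were lost while 1 other gene was called. The 8 members were low in WT hearts, where 24 to 39 fragments per library covered them all, so their WT levels and ratios are known only within wide counting intervals.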

Other observations

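The WT libraries held few fragments of the members, and not evenly. Of the 8 genes 3 were above 0 in WT replicate 1, 5 in replicate 2 and 4 in replicate 3. Leaving out Ocln, the other 7 had 3, 10 and 6 fragments in WT replicates 1, 2 and 3, beside 1748, 1745 and 2676 in the Cfp1-cKO replicates. WT replicate 2 was also the only WT library with Sftpc (0.330 FPKM) and Scgb1a1 (1.45 FPKM) above 0.

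Values of a few genes stood outside the comparisons above. Sfta2, one of the 8 genes most like the members, was at 0 in all WT libraries and at 2.22, 2.65 and 3.48 FPKM in Cfp1-cKO replicates 1, 2 and 3. H2-DMb1, another of the 8, which helps load peptides onto MHC class II, had 0.267, 0.357 and 0.262 FPKM in the WT libraries, against 4.04, 4.93 and 6.54 FPKM in the Cfp1-cKO replicates. Bpifa1, a secreted protein of the upper airway, was at 0 in all WT libraries and at 0.432, 2.096 and 48.0 FPKM in Cfp1-cKO replicates 1, 2 and 3, while Scgb1a1 was at 2904, 405 and 671 FPKM, so airway genes did not share 1 order among the libraries.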
